A study of Mus musculus with 12 samples.

Results

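The transcripts described here are those whose change around an ear punch wound differed between 2 inbred mouse strains, LG/J and SM/J. All 12 arrays of the series were used. They fall into 4 groups of 3: LG/J uninjured ear, LG/J ear tissue from around the punch at day 7, SM/J uninjured ear, and SM/J ear tissue from around the punch at day 7. Total RNA of whole ear tissue was hybridised to Illumina mouse bead arrays. No other allele or agent is named in the labels, which also give neither age nor sex and do not say whether each array came from its own animal, so p-values measure the spread between samples, which may be technical. LG/J mice are known for closing ear holes well and SM/J mice for closing them poorly, and the comparison asks which transcripts respond to the wound differently in the 2 strains.

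In skin, a wound first draws neutrophils and then macrophages through chemokines, while keratinocytes at the wound edge switch to a wound program of keratins, protease inhibitors and antimicrobial proteins. Fibroblasts and contractile myofibroblasts then lay down and pull on new matrix. The mouse ear also holds cartilage, fat, nerve and some striated muscle, and a punch removes or disturbs all of them.

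Epidermal, dermal fibroblast, cartilage, fat, muscle, nerve and immune markers were detected. For liver, brain and pancreas 1 marker each was measured, and none was above the background limit on all 12 arrays. The brain marker was above it on the LG/J arrays, at 5.97 to 6.59, and lay at 5.56 to 5.85 on the SM/J arrays. The liver marker reached 6.05 on LG/J uninjured replicates 1 and 4, and the pancreas marker 5.9 on replicate 4. The arrays had median signals of 95.9 to 118. The background limit was at 5.75 to 5.83 on the normalized log2 scale, and 52.4% to 55.0% of an array's probes exceeded it. Of the uninjured arrays, LG/J replicate 4 and SM/J replicate 2 stood apart. On the first principal component LG/J replicate 4 scored 2.01, whereas LG/J replicates 1 and 3 scored -51.9 and -49.6. Its mean over the T cell markers was 6.22, whereas the other 2 arrays had 7.72 and 8.14, and its macrophage mean was 9.76 against 10.88 and 11.03. Its mean over the cartilage markers was higher, at 10.36 against 9.32 and 9.45. SM/J replicate 2 scored 30.7 against 51.8 and 50.7, and its mean over 5 skeletal muscle markers was 12.17 against 10.88 and 11.05. Each is 1 of only 3 uninjured samples of its strain. Interaction values without both are given beside some results only, so a missing value does not mean that a result stayed in place. Chil4, for example, went from -2.02 to -1.63 and Grm4 from 1.41 to 1.12.

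For each feature (a named gene by 1 probe, or a probe with no gene name) the interaction was the day-7 change in LG/J minus the day-7 change in SM/J, on the log2 intensity scale. A positive value means a more positive change in LG/J, a negative value a more positive change in SM/J. A feature was called where limma's test gave a Benjamini-Hochberg adjusted p under 0.05. Of 24690 features 105 were called, which is 0.425%. The change was more positive in SM/J for 92 (0.373% of all features) and more positive in LG/J for 13 (0.0527%). Here and below, a larger change in a strain means a more positive one, which can also come from a fall in the other strain. Without adjustment 2181 features (8.83%) had p under 0.05. The median interaction over all features was 0.01, the central 90% of them lay between -0.57 and 0.49, and the smallest called interaction had a size of 0.83. There were 530 features with an interaction over 1 in size, of which 429 were not called. Without both arrays that stood apart, 1245 features were called (5.04%; 613 larger in LG/J, which is 2.48%, and 632 larger in SM/J, which is 2.56%), all 105 among them and all 105 with the same sign. Without SM/J uninjured replicate 2 alone the count was 352. Leaving out 1 other array at a time gave 125 for LG/J uninjured replicate 4, and 14 to 62 for each of the remaining 10, so the number of calls depends on single arrays. Over the 12 arrays left out in turn, the 34 features named by rule below kept their call in 201 of 408 cases and their sign in every case.

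Features that passed the test in both strains mostly moved in the same direction. Day-7 calls numbered 2566 in LG/J (10.4%; rises 5.44%, falls 4.95%). SM/J had 2534 (10.3%; rises 5.66%, falls 4.61%). Of these features 1360 moved the same way in both strains and 28 in opposite ways. These 2 comparisons share no array, and across the 24690 features, which are not independent replicates, the changes had a Pearson correlation of 0.69. The 105 called features split into 3 sets. In 47 the rise was larger in SM/J with no called fall in LG/J, in 45 the level fell in LG/J and rose or was not called in SM/J, and in 13 the change was more positive in LG/J.

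**Figure D1:**
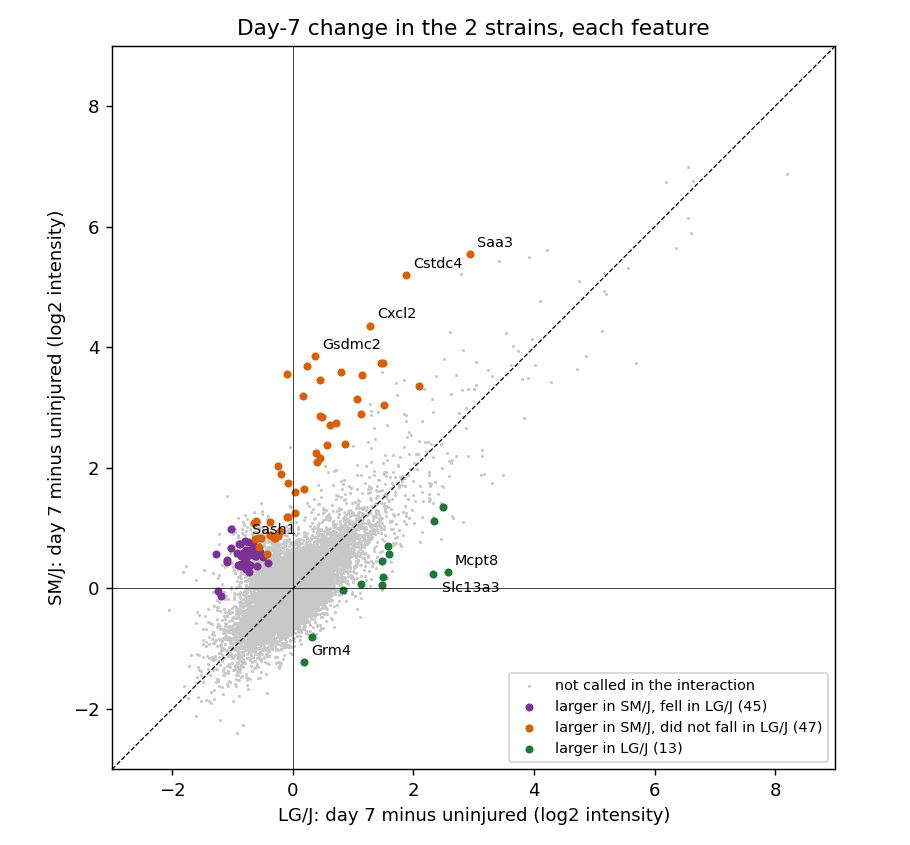
Day-7 change in LG/J (horizontal axis) and SM/J (vertical axis), in log2 intensity, for each of the 24690 features as a point, with the 105 called in the interaction coloured by set and the diagonal dashed. The 47 features in orange lie above the diagonal with SM/J changes up to 5.54, the 45 in purple crowd to the upper left of the origin, and the 13 in green lie below the diagonal.

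The first set included genes of acute inflammation, macrophages and epithelium whose rise was larger in SM/J. Its 47 features had a median day-7 change of 2.16 in SM/J and 0.18 in LG/J. Of these, 29 were named genes (61.7%, where 57.6% of all features were named). In all 47 the 3 SM/J day-7 arrays did not overlap the 3 SM/J uninjured arrays. The 47 were called on these same arrays, so this is no separate support, and the share over all features was not counted. Values per array are given below in the order of replicates 1, 3 and 4 (LG/J uninjured), 2, 4 and 5 (SM/J uninjured), and 1, 2 and 3 (both day-7 groups). In whole tissue, more cells of a type and more RNA per cell cannot be told apart.

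Promoters of 3 of these genes are shown because their products belong to the inflammatory and macrophage response and each holds a motif match. All 3 had a called rise in SM/J, and only Saa3 also had one in LG/J. Genes of that response without a match are not shown, so the 3 do not show how common a motif is. Each is the 250 bases before the gene's start on its own strand (RefSeq, GRCm38.p6), in lower case with matches to a motif in capitals. All motifs were searched on both strands. In Cxcl2, at chr5:90903649-90903898 on the plus strand, the capitals are 2 overlapping matches to the NF-kB motif GGGRNWYYCC. The C/EBP motif TTGCNNAA has 1 match in Saa3, at chr7:46715677-46715926 on the minus strand. It has 1 match in Chil4, at chr3:106219480-106219729 on the minus strand.
Cxcl2: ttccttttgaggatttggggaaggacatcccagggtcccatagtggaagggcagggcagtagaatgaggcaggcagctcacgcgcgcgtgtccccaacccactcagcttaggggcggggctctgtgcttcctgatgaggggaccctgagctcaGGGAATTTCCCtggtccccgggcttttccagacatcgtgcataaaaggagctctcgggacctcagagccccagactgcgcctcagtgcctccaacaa
Saa3: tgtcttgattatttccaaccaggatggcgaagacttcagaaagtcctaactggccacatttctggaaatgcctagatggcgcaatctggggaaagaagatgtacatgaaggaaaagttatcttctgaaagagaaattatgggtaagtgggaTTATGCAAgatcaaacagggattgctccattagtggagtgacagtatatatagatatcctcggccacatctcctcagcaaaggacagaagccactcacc
Chil4: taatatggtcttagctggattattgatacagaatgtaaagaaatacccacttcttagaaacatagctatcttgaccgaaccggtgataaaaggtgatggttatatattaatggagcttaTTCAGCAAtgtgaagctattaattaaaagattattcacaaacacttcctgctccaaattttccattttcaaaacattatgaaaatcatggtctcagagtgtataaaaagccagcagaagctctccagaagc

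Of the 29 named genes of this set, 21 had a promoter in the table, with 22 windows between them. The C/EBP motif was found in 6 of the 22 windows (27.3%), those of Chil4, Fam83e, Klk1b26, Klra4, Saa3 and Scgb2b27, and in 9.56% of all 32851 promoter windows. The NF-kB motif was found in 1 window (4.55%), that of Cxcl2, and in 3.9% of all windows, and the AP-1 motif TGANTCA in 1 window (Prl2c3) and in 6.75% of all. Among the 12 windows of genes that fell in LG/J the C/EBP and AP-1 motifs were found in 0 and the NF-kB motif in 1. These are matches of letters, counted in genes chosen for their change, and several of the genes are members of families with similar sequences.

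Cxcl2, a chemokine that draws neutrophils, stood at 5.29, 5.03 and 5.30 on the 3 LG/J uninjured arrays and at 6.16, 5.73 and 7.58 at day 7. In SM/J it stood at 5.29, 5.07 and 5.44 uninjured and at 10.55, 9.19 and 9.15 at day 7. All uninjured arrays lay below the background limit, and the lowest SM/J day-7 array was above the highest LG/J one. The interaction was -3.08 ± 0.59 (SE, adjusted p = 0.0411), with a day-7 level at least 14.3-fold above uninjured in SM/J (adjusted p = 1.34e-05), while the LG/J change was not called (adjusted p = 0.0667). A fold against a group below the limit is a lower bound, set against each array's lowest signal above the limit or the probe's own value where that is higher, and the interaction of such a gene is that of its measured values. A second Cxcl2 probe had an interaction of -3.92. Its neighbour in function Cxcl1 rose in both strains, by 1.41 in LG/J and 2.92 in SM/J, with an interaction of -1.51 that was not called.

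Saa3, an acute-phase protein made locally in inflamed tissue, was at 6.22, 6.19 and 6.96 in LG/J uninjured ear and at 9.88, 8.63 and 9.67 at day 7. In SM/J it was at 5.98, 6.33 and 6.33 uninjured and at 12.25, 11.004 and 12.02 at day 7. It rose in both strains, by 2.94 ± 0.35 in LG/J and 5.54 ± 0.35 in SM/J, from uninjured levels that overlapped. The interaction was -2.60 ± 0.49 (adjusted p = 0.0411).

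Cd14, the co-receptor that hands bacterial lipopolysaccharide to Tlr4, was at 8.29, 8.34 and 7.42 in LG/J uninjured ear and at 9.27, 8.76 and 9.21 at day 7. SM/J arrays held 8.51, 8.74 and 8.77 uninjured and 12.25, 11.68 and 11.53 at day 7. The rise was 1.06 ± 0.25 in LG/J and 3.15 ± 0.25 in SM/J, an interaction of -2.08 ± 0.35 (adjusted p = 0.0251). The low LG/J uninjured value came from replicate 4, and without the 2 arrays that stood apart the interaction was -2.30. Other members of this receptor system were not called in the interaction. Tlr4 had changes of -0.06 and -0.08 (interaction 0.02), Tlr2 rose by 1.01 and 1.10 (interaction -0.09) and Ly96, the Tlr4 partner, by 0.87 and 0.95 (interaction -0.07). Lbp, which loads lipopolysaccharide onto Cd14, rose in LG/J by 0.68 and had -0.29 in SM/J, an interaction of 0.97 just outside the threshold (adjusted p = 0.0501).

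Acod1 makes itaconate in activated macrophages. Its LG/J arrays were at 5.76, 5.502 and 5.67 uninjured and 7.28, 6.34 and 7.69 at day 7, and its SM/J arrays at 5.91, 5.90 and 5.90 uninjured and 10.18, 9.56 and 9.22 at day 7. It rose in both strains, in LG/J at least 2.48-fold and in SM/J by 3.75 ± 0.29 on the log2 scale. The interaction was -2.29 ± 0.41 (adjusted p = 0.0353), and -2.40 by a second probe.

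Arg1, the arginase of alternatively activated macrophages, was well detected in every group. It stood at 7.48, 7.42 and 7.995 in LG/J uninjured ear, at 9.97, 9.62 and 9.61 in LG/J at day 7, at 8.48, 8.16 and 7.996 in SM/J uninjured ear and at 11.61, 11.45 and 11.65 in SM/J at day 7. It rose by 2.10 ± 0.18 in LG/J and 3.36 ± 0.18 in SM/J, with an interaction of -1.26 ± 0.25 (adjusted p = 0.049) and of -1.54 by a second probe. Arg2, the mitochondrial arginase, began lower in SM/J. It stood at 7.97, 7.62 and 7.76 in LG/J uninjured ear and at 6.80, 6.60 and 6.65 in SM/J uninjured ear, with no overlap. At day 7 it was at 8.04, 7.84 and 8.03 in LG/J and 8.72, 8.20 and 8.10 in SM/J, so that only SM/J had a called rise (1.66 ± 0.17, interaction -1.47 ± 0.23, adjusted p = 0.0201).

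The chitinase-like genes Chil3 and Chil4, products of macrophages and epithelium in type 2 inflammation, were called in SM/J only. Chil3 lay between 5.32 and 6.47 on all 6 LG/J arrays, of which 1 was above the background limit. Its SM/J arrays were at 7.67, 8.68 and 8.39 uninjured and 11.62, 10.72 and 10.99 at day 7. The strains thus differed before injury, by at least 5.49-fold (adjusted p = 2.42e-05), and SM/J rose by a further 2.86 ± 0.28 (interaction -2.41 ± 0.40, adjusted p = 0.0251). The other Chil3 probes gave -2.31 and -1.08, so 1 of them had a smaller interaction. Chil4 had SM/J arrays at 7.01, 8.06 and 7.76 uninjured and at 10.76, 9.80 and 10.49 at day 7, with LG/J uninjured arrays below the limit and LG/J day-7 arrays between 5.80 and 6.41 (interaction -2.02 ± 0.40, adjusted p = 0.047). Of their relatives, Chil1 rose in both strains, by 2.27 in LG/J and 1.46 in SM/J, and Chit1 and Chil5 were not called in either strain.

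Epithelial genes of this set were led by Gsdmc2, a gasdermin of epithelial cells. It was at 5.47, 4.95 and 5.54 in LG/J uninjured ear and at 5.73, 5.37 and 5.97 in LG/J at day 7, so its LG/J groups overlapped and 1 of 6 arrays lay above the limit. SM/J arrays were at 6.16, 6.41 and 7.16 uninjured and at 9.68, 10.97 and 10.64 at day 7. The rise in SM/J was 3.86 ± 0.32 and the interaction -3.49 ± 0.45 (adjusted p = 0.00574), the lowest value among named genes. A second probe gave -2.46. The family members Gsdmc and Gsdmc3 rose in both strains, by 1.73 and 2.37 in LG/J and by 3.21 and 3.52 in SM/J, and neither was called in the interaction. The other 5 gasdermins measured had a called rise in neither strain.

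Cstdc4, a member of the stefin cluster of cysteine protease inhibitors, was at 5.20, 5.58 and 5.09 in LG/J uninjured ear and at 7.58, 6.46 and 7.46 at day 7. In SM/J it was at 5.07, 5.60 and 5.69 uninjured and at 11.17, 10.34 and 10.47 at day 7. The day-7 level was at least 2.60-fold above uninjured in LG/J and at least 29.3-fold in SM/J, and the interaction was -3.33 ± 0.41 (adjusted p = 0.00482). None of the other 10 stefin genes measured was called in the interaction. Of these, 7 rose in both strains. Csta3 changed by 6.20 in LG/J and 6.74 in SM/J, Cstdc5 by 6.56 and 6.15, and Stfa1 by 8.19 and 6.88. Smaller rises were those of Stfa3, by 1.73 and 0.85, and of Stfa2l1, by 2.17 and 3.30, whose interaction of -1.13 lay just outside the threshold (adjusted p = 0.0512). Csta1, Csta2 and Cstdc1 were called in neither strain, with changes between -0.15 and 0.27. Probes of such clustered families may not part their members, so the assignment to Cstdc4, and to the gasdermin, kallikrein, prolactin and Ly49 genes here, is uncertain.

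S100a7a, an antimicrobial protein of wounded and psoriatic epidermis, was below the limit on all uninjured arrays. It rose at least 1.73-fold in LG/J (7.10, 6.22 and 6.42 at day 7) and at least 5.64-fold in SM/J (8.42, 7.95 and 8.48 at day 7), with an interaction of -1.52 ± 0.29 (adjusted p = 0.0411). Tmprss11a, a membrane serine protease of squamous epithelium, rose by 0.87 in LG/J and 2.40 in SM/J (interaction -1.53).

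Tissue kallikreins, a family of secreted serine proteases, gave 3 calls. Klk1 was below the limit on all uninjured arrays and stood at 6.96, 5.92 and 6.89 at day 7 in LG/J and 9.20, 8.87 and 8.56 in SM/J. It was at least 1.74-fold higher at day 7 in LG/J and at least 8.52-fold higher in SM/J (interaction -2.24 ± 0.35, adjusted p = 0.0201). Klk1b26 had an interaction of -2.08 ± 0.25 and Klk1b5 of -1.71 ± 0.25. Klk1b27 rose by 1.97 in SM/J, with an interaction of -1.25 that was not called, while Klk1b21 rose by 0.58 and 0.57, and the interactions of Klk1b9 and Klk1b11 were -0.19 and 0.09. The day-7 changes of Klk1b24 were 0.48 and -0.15 in the LG/J and SM/J arrays, neither called, with an interaction of 0.63 in the opposite direction (adjusted p = 0.376). A second Klk1b26 probe, above the limit on only 2 arrays, had an interaction of 0.03.

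Prl2c3 and Prl2c4, proliferin genes of the prolactin family, were below the limit on all 6 uninjured arrays. Prl2c4 stood at 6.34, 5.503 and 5.48 in LG/J at day 7 and at 9.12, 8.28 and 8.80 in SM/J. That is at least 7.71-fold above uninjured in SM/J, and the interaction was -3.0 ± 0.33 (adjusted p = 0.00243). Prl2c3 had an interaction of -2.79 ± 0.32, and their relative Prl2c2 rose by 1.70 in LG/J and 3.40 in SM/J without a call in the interaction. Prl2c1 was called in neither strain.

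The Ly49 receptor genes Klra4 and Klra16, known from natural killer cells, were below the limit in all LG/J samples and in SM/J uninjured ear. Klra16 reached 8.16, 7.29 and 7.14 in SM/J at day 7, at least 3.35-fold above uninjured (interaction -2.27 ± 0.30, adjusted p = 0.0074), and Klra4 reached 8.09, 7.15 and 7.11 (interaction -2.10 ± 0.36). Both genes have probes that did not share this. Of 2 further Klra4 probes 1 had -2.30 and the other 0.03, and 2 further Klra16 probes had -0.27 and 0.28, all above the limit on 3 arrays or fewer. The other 7 Klra genes measured had no called rise in either strain, and their interactions, from -0.41 to 0.85, were not called. Klra1 fell in SM/J by 0.72 (adjusted p = 0.0196) with an interaction of 0.80, and Klra22 had -0.72 in SM/J and an interaction of 0.85. None of the 19 measured genes of the T and NK cell list was called.

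Scgb2b27, a secretoglobin, was far higher in LG/J before injury, at 9.62, 8.89 and 9.37 against 5.54, 5.35 and 5.26 in SM/J. At day 7 it was at 9.63, 9.92 and 9.78 in LG/J, with no called change, and at 8.27, 8.12 and 8.32 in SM/J, at least 5.46-fold above uninjured (interaction -2.37 ± 0.24, adjusted p = 0.00133). A second Scgb2b27 probe, above the limit on all 12 arrays, gave changes of 0.46 and 1.12 and an interaction of only -0.66. By the probe used, Scgb2b27 is 1 of 3 called features that stayed higher in LG/J at both times although the rise was larger in SM/J. Lilr4b, a receptor gene of myeloid cells, went the other way and was higher in SM/J at both times. It stood at 7.30, 6.78 and 7.64 in LG/J at day 7 and at 10.22, 9.58 and 9.98 in SM/J (interaction -1.77 ± 0.29, and -1.16 by a second probe). Gldc, a subunit of the glycine cleavage system, was another that stayed higher in LG/J, with 8.53, 8.39 and 8.33 uninjured and 8.06, 8.07 and 7.96 at day 7 in LG/J against 6.58, 6.36 and 6.51 and then 7.91, 7.37 and 7.49 in SM/J (interaction -1.49 ± 0.20, adjusted p = 0.00933). A second Gldc probe gave -0.84. The remaining named genes of the set were Gm5150, Fam83e, Igfl3, 6330407A03Rik, 3110021A11Rik, Sntb2 and Tmem164, with interactions from -1.81 to -1.0 and called rises in SM/J.

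The unnamed probe with the lowest interaction was ILMN_1252295. It lay between 5.09 and 5.54 on all 9 arrays of the other 3 groups and at 9.53, 8.67 and 8.57 in SM/J at day 7. It was below the limit in every group but that one, where it was at least 8.82-fold above uninjured (interaction -3.66 ± 0.30, adjusted p = 0.000242).

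**Figure D2:**
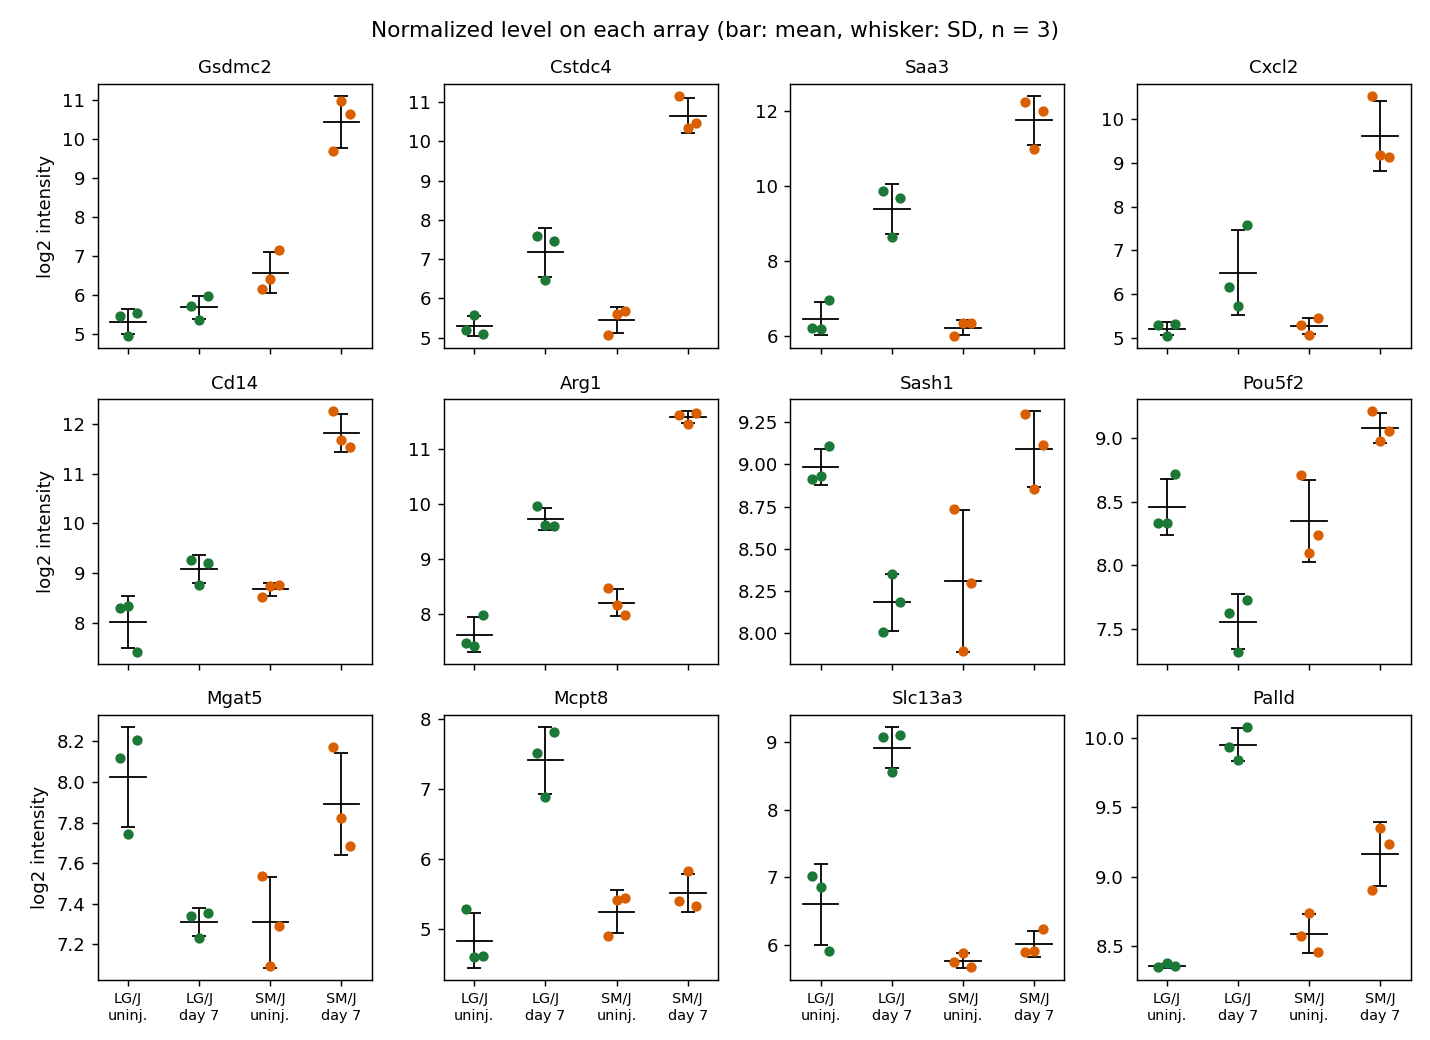
Normalized log2 intensity of 12 genes on each array (points), with the mean and SD of 3 arrays per group, in LG/J (green) and SM/J (orange) uninjured ear and at day 7. The vertical axes differ between genes. Gsdmc2, Cstdc4, Saa3, Cxcl2, Cd14 and Arg1 are highest in SM/J at day 7, Sash1, Pou5f2 and Mgat5 are lower at day 7 than uninjured in LG/J and higher in SM/J, and Mcpt8, Slc13a3 and Palld are highest in LG/J at day 7.

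The second set held 45 features that fell in LG/J, of which 24 also rose in SM/J and 21 had no called SM/J change. They were moderately expressed: the group medians over the 45 were 8.02 and 7.20 in LG/J uninjured and at day 7, and 7.31 and 7.89 in SM/J. The changes were small, with LG/J and SM/J medians of -0.78 and 0.55. Only 14 (31.1%) had a gene name, where 57.6% of all features did. Of the 28 features of the whole array that changed in opposite directions in the 2 strains, all 28 fell in LG/J and rose in SM/J, and 24 of them were called in the interaction. Without both arrays that stood apart, 118 of the 1245 features called in the interaction fell in LG/J and rose in SM/J, and 41 rose in LG/J and fell in SM/J. The first direction was still the more common but no longer the only one. These counts cover only features called in the interaction, whereas the 28 cover the whole array.

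Sash1, a scaffold protein of cell signalling, was at 8.91, 8.93 and 9.11 in LG/J uninjured ear and at 8.01, 8.35 and 8.19 at day 7. SM/J arrays were at 8.74, 7.90 and 8.30 uninjured and at 9.30, 8.85 and 9.11 at day 7. The LG/J groups did not overlap and neither did the SM/J groups, where replicate 2 was the highest uninjured array. It fell by 0.80 ± 0.19 in LG/J and rose by 0.78 ± 0.19 in SM/J, with an interaction of -1.58 ± 0.27 (adjusted p = 0.0289).

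Pou5f2, a POU-domain transcription factor, was at 8.33, 8.33 and 8.71 in LG/J uninjured ear and at 7.63, 7.32 and 7.73 at day 7. In SM/J it was at 8.71, 8.10 and 8.24 uninjured and at 9.21, 8.97 and 9.05 at day 7. The uninjured strains overlapped and the day-7 strains did not (interaction -1.63 ± 0.25, adjusted p = 0.0201).

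Mgat5, which adds branches to N-linked glycans, fell by 0.71 ± 0.17 in LG/J and rose by 0.58 ± 0.17 in SM/J (interaction -1.30 ± 0.24, adjusted p = 0.0368). Adamtsl1, a secreted relative of the ADAMTS proteases, fell by 0.78 ± 0.18 and rose by 0.64 ± 0.18 (interaction -1.43 ± 0.26). The transcript C030013C21Rik fell by 1.09 ± 0.14 in LG/J, from 7.61, 7.83 and 7.67 to 6.56, 6.47 and 6.84. It stood at 7.09, 7.05 and 6.93 uninjured and 7.62, 7.25 and 7.53 at day 7 in SM/J, a change that was not called (interaction -1.53 ± 0.20, adjusted p = 0.00574). Ssb, the La protein that binds RNA polymerase III transcripts, and Trpm7, a cation channel with a kinase domain, fell in LG/J with interactions of -1.30 ± 0.26 each. Ccnt2, a cyclin of the elongation factor P-TEFb, fell by 0.63 and rose by 0.66 (interaction -1.29 ± 0.24). Olfr943, an olfactory receptor gene, was above the limit on 1 array of each of 2 groups and on 0 of the others, so its interaction of -1.32 ± 0.25 describes values near background. The remaining named genes of the set were Olfr1176, Gm12992, Gm26588, Cdh24 and 9130020K20Rik, with interactions from -1.26 to -0.83.

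In 27 of the called features the strains changed places: LG/J was higher in uninjured ear and SM/J at day 7, both by the same test (19.8% of all features differed between uninjured strains and 24.6% at day 7). Of these 8 had gene names, Sash1, Mgat5, Ccnt2, C030013C21Rik, Fam83e, 9130020K20Rik, 3110021A11Rik and Klk1b26. Among the other called features with a negative interaction, in 33 the strains were not called apart uninjured and SM/J was higher at day 7. In 22 LG/J was higher uninjured and not called at day 7, in 7 SM/J was higher at both times and in 3 LG/J was.

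Across the 45 features the uninjured arrays that stood apart were also the highest of their groups. The median level, centred on each feature's mean over the 12 arrays, was 0.32, 0.30 and 0.56 on LG/J uninjured replicates 1, 3 and 4, and -0.01, -0.45 and -0.35 on SM/J uninjured replicates 2, 4 and 5. In LG/J at day 7 it was -0.47, -0.38 and -0.28, and in SM/J at day 7 0.41, 0.19 and 0.20. SM/J replicate 2 was the highest SM/J uninjured array in 39 of the 45. All 45 kept their sign without both arrays, where Sash1 had -1.73, Pou5f2 -1.68 and Mgat5 -1.32.

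**Figure D3:**
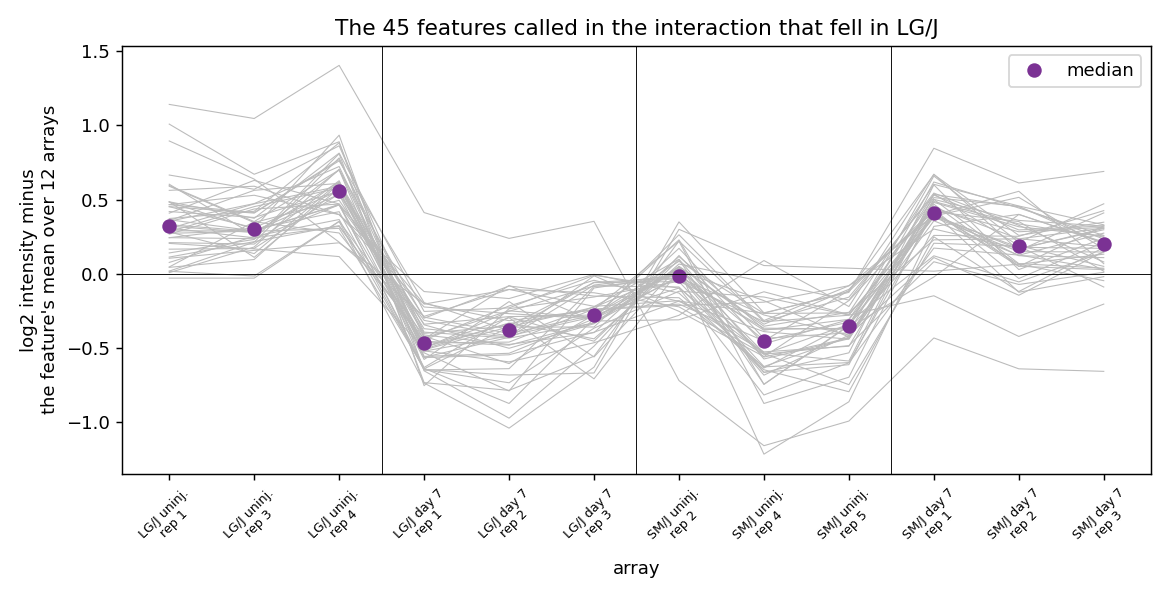
The 45 called features that fell in LG/J, each a grey line over the 12 arrays, in log2 intensity minus the feature's mean, with the median per array in purple. Medians are above 0 on LG/J uninjured arrays (0.30 to 0.56), below 0 at day 7 (-0.47 to -0.28), between -0.45 and -0.01 on SM/J uninjured arrays and between 0.19 and 0.41 on SM/J day-7 arrays.

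Other probes of the genes that fell in LG/J gave smaller interactions, while those of the other called genes gave smaller or larger ones. For the genes that fell in LG/J there were 6 other probes, of 5 genes, above the limit on at least 6 arrays. Their interactions ran from -0.66 to 0.39, with 4 of 6 below 0 as by the probe used, and 0 of 6 reached 50% of its value. Sash1 had -0.11 by its other probe, Mgat5 0.19, Pou5f2 -0.66, Ssb -0.44 and Ccnt2 -0.09 and 0.39. The other Pou5f2 probe had opposite changes too, -0.22 in LG/J and 0.44 in SM/J. Sntb2 and Tmem164, which rose in SM/J with LG/J changes of -0.53 and -0.58 that were not called, were similar, with interactions of -1.37 and -1.41 by the probe used and of 0.18, 0.38 and 0.15 by their others. Among called genes with no fall in LG/J, 12 of 17 other probes, of 11 genes, reached 50% of the value. Of these probes 5 were of Hbb-bs, and without them the count was 7 of 12, of 10 genes. The probe used was always the brighter one, probe sequences were not used here, and which transcript each probe reads was not tested.

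**Figure D4:**
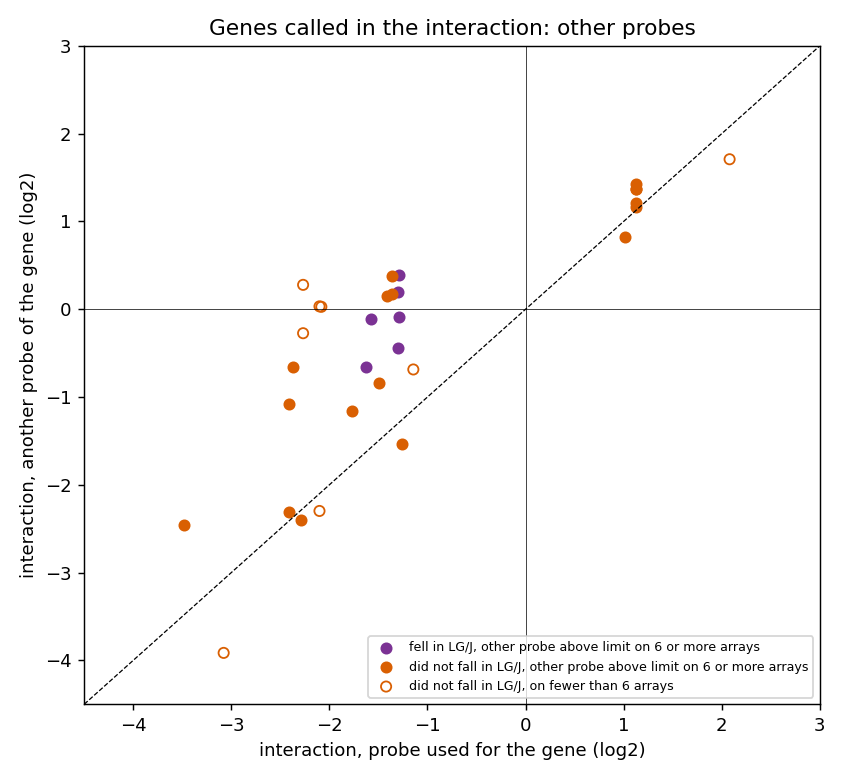
Interaction of each other probe of a called gene (vertical axis, log2) against that of the probe used for the gene (horizontal axis), with the diagonal dashed. Filled points are probes above the background limit on at least 6 arrays. The 6 purple points, of genes that fell in LG/J, lie between -0.66 and 0.39. The 17 filled orange points, of genes that did not fall in LG/J, lie between -2.46 and 1.43, some near the diagonal and others, such as those of Scgb2b27, Sntb2 and Tmem164, far above it.

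The third set held 13 features with a more positive change in LG/J, 7 of them named. In 11 the strains were not called apart in uninjured ear and LG/J was higher at day 7. Mcpt8, a protease gene that marks basophils, was at 5.29, 4.61 and 4.62 in LG/J uninjured ear, all below the limit, and at 7.52, 6.89 and 7.82 at day 7. SM/J arrays were at 4.90, 5.41 and 5.45 uninjured and at 5.40, 5.83 and 5.33 at day 7, with 1 of 6 above the limit. Mcpt8 was at least 3.07-fold above uninjured at day 7 in LG/J (adjusted p = 2.34e-05), and the interaction was 2.30 ± 0.36 (adjusted p = 0.0201). The mast cell proteases beside it were already high in uninjured ear. Cma1 rose in LG/J by 1.24, Tpsab1 by 1.48 and Cpa3 had 0.71, with SM/J changes of 0.56, -0.02 and 0.62 that were not called. None of these 3 was called in the interaction. The LG/J rises rest in part on uninjured replicate 4, an array that stood apart. The mean of Cpa3, Cma1 and Mcpt4 was 10.94 there, against 12.15 and 12.2 on the other LG/J uninjured arrays. At day 7 that mean was 12.46 to 12.71 in LG/J. Without both arrays that stood apart, the Tpsab1 rise in LG/J was 1.03.

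Slc13a3, a transporter of dicarboxylates, was at 7.02, 6.86 and 5.91 in LG/J uninjured ear and 9.08, 8.57 and 9.11 at day 7, and between 5.67 and 6.23 on all 6 SM/J arrays. It rose by 2.33 ± 0.24 in LG/J (interaction 2.08 ± 0.35, adjusted p = 0.0251), and a second probe gave 1.71. The low uninjured value was that of replicate 4, and the interaction without both arrays that stood apart was 1.75.

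Palld, which encodes the actin-bundling protein palladin of contractile fibroblasts, was at 8.35, 8.38 and 8.35 in LG/J uninjured ear and 9.94, 9.84 and 10.08 at day 7. SM/J arrays were at 8.57, 8.73 and 8.45 uninjured and 8.90, 9.35 and 9.24 at day 7. It rose in both strains, by 1.59 ± 0.14 and 0.58 ± 0.14, with no overlap of the groups in either (interaction 1.02 ± 0.20, adjusted p = 0.0426), and a second probe gave 0.82.

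Prss46, a serine protease gene, was below the limit on all uninjured arrays. At day 7 it was at least 2.61-fold higher in LG/J (7.18, 7.28 and 7.06) and at least 1.38-fold higher in SM/J (6.33, 6.29 and 6.11), with an interaction of 1.22 ± 0.21 (adjusted p = 0.0332). Nptx2, a secreted pentraxin first known from neurons, was at least 2.23-fold higher at day 7 in LG/J and was not called in SM/J (interaction 1.03 ± 0.20). The unnamed probe ILMN_2684370 rose by 1.49 in LG/J with 0.06 in SM/J (interaction 1.42 ± 0.23, adjusted p = 0.021).

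In 2 features the interaction came from a fall in SM/J. Grm4, a metabotropic glutamate receptor gene, was at 8.58, 8.41 and 7.88 in LG/J uninjured ear, 8.32, 8.62 and 8.48 in LG/J at day 7 and 8.40, 8.01 and 8.28 in SM/J uninjured ear. It fell to 6.82, 6.89 and 7.30 in SM/J at day 7 (change -1.23 ± 0.19, interaction 1.41 ± 0.27, adjusted p = 0.0413). Hbb-bs, an adult beta-globin, was at 13.83, 14.04 and 13.44 in LG/J uninjured ear and 13.99, 14.01 and 14.28 at day 7, and fell in SM/J from 15.01, 14.99 and 15.08 to 14.07, 14.25 and 14.35. The interaction was 1.13 ± 0.22 (adjusted p = 0.0483), with 1.17 to 1.43 by 5 other Hbb-bs probes. Globin RNA in ear tissue moves with the blood the sample holds. Hba-a1 and Hbb-bt, other adult globins, had interactions of 1.13 and 1.01 that were not called, while Hbb-b2 had changes of 0.47 and 0.63 and an interaction of -0.15. Hbb-bs was the only call among the 12 measured genes of the blood list. The mean of that list was 8.82 to 9.65 in LG/J uninjured ear, lowest on replicate 4, 9.61 to 9.73 in LG/J at day 7, 9.18 to 9.27 in SM/J uninjured ear and 9.27 to 9.39 in SM/J at day 7. The part of blood in this result was not tested.

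The interaction was also read through 32 gene lists of cell types and pathways, with 927 members measured, of which 9 (0.97%) were called, where 0.425% of all features were. Over all features, rises were called for 5.44% in LG/J and 5.66% in SM/J, and falls for 4.95% and 4.61%. Calls fell in 5 lists. Gsdmc2 and S100a7a were called among 37 wound keratinocyte genes, whose median change was 1.73 in LG/J and 2.92 in SM/J and whose median interaction was -0.24. Of the 37, 25 had interactions below 0 and 12 above 0. Sprr1b rose by 5.69 in LG/J and 3.74 in SM/J, an interaction of 1.94 that was not called (adjusted p = 0.0613). Without both arrays that stood apart the list had 3 calls larger in SM/J and 2 larger in LG/J, Sprr1b and Stfa1. Cxcl2 and Saa3 were called among 28 neutrophil and acute inflammation genes, of which 22 had interactions below 0 (median -0.50). Here 15 rose in LG/J and 18 in SM/J. Cd14, Chil3 and Arg1 were called among 39 monocyte and macrophage genes, of which 30 rose in LG/J and 23 in SM/J. The median interaction of that list was 0.16, so the 3 calls, all larger in SM/J, went against the sign of the list as a whole, and this median became -0.05 without both arrays that stood apart, 1 of which had a low macrophage mean. Mcpt8 was called among 13 mast cell and basophil genes (median 0.38, 0.18 without both arrays and 0.04 without LG/J uninjured replicate 4 alone). Hbb-bs was called among 12 blood genes (median 0.16, and -0.03 without both arrays).

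The other 27 lists had 0 calls by limma, so their values are descriptions. Contractile genes of smooth muscle and myofibroblasts had a median interaction of 0.47, with 16 of 18 members above 0, 7 of them with an unadjusted p under 0.05. Without both arrays that stood apart the median was 0.35. The list then had 2 calls larger in LG/J, Tagln and Synpo2, and 2 larger in SM/J, Tpm2 and Des. Tagln, a marker of such cells, was at 6.27, 6.65 and 6.12 in LG/J uninjured ear and 7.46, 7.55 and 7.63 at day 7, and between 6.002 and 6.43 on the 6 SM/J arrays (interaction 0.99 ± 0.21, adjusted p = 0.0648). MHC and antigen presentation genes had a median of 0.28, with 26 of 29 above 0, and 0.21 without both arrays. Collagen and matrix genes had a median of 0.21, with 33 of 44 above 0 and Fmod, fibromodulin, at 0.86 ± 0.20 (adjusted p = 0.0873). Patterning and growth factor genes had 49 of 69 above 0, and Bmp5, a bone morphogenetic protein of ear cartilage, was lowest in p. It was between 7.04 and 7.30 on all LG/J arrays and went from 7.93, 8.45 and 8.31 to 7.19, 7.24 and 7.41 in SM/J (interaction 0.97 ± 0.20, adjusted p = 0.0581).

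Fast skeletal muscle genes had a median interaction of -0.40, with 40 of 44 below 0 and falls called for 28 in LG/J and 9 in SM/J (4.95% and 4.61% of all features). This list moved with an array that stood apart. Its mean level was 11.04 on SM/J uninjured replicate 2 and 9.83 and 9.97 on the other 2, and its median interaction was -0.81 without that array. Cell cycle genes, with 28 risen in LG/J and 25 in SM/J of 47, had a median interaction of -0.01, and 26 genes around p21 and p53 had -0.05. Cdkn1a, which encodes p21, had an interaction of 0.28 ± 0.28 (95% interval -0.31 to 0.88, adjusted p = 0.878).

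**Figure D5:**
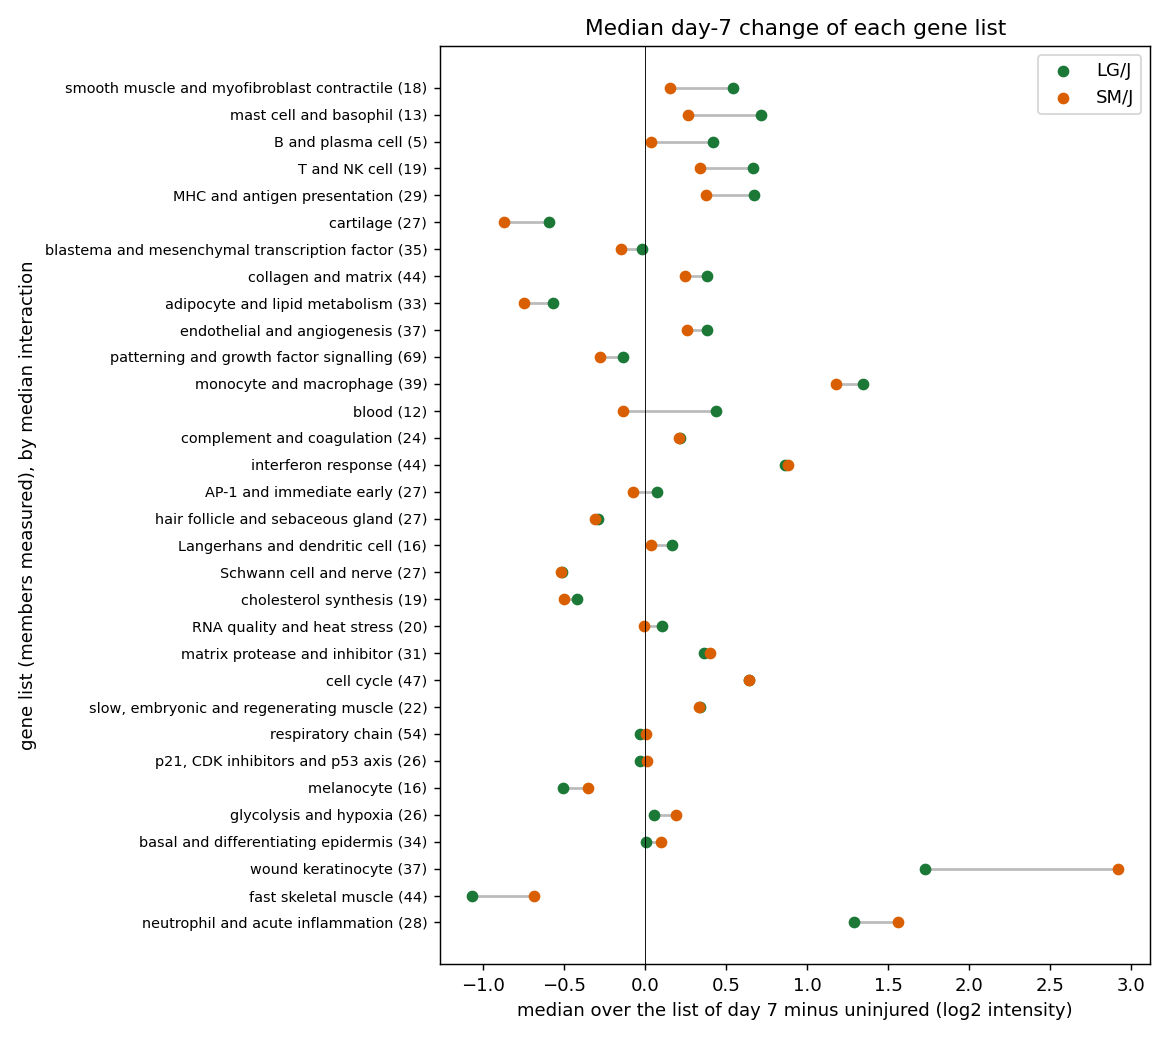
Median day-7 change in LG/J (green) and SM/J (orange) of the measured members of each of 32 gene lists, in log2 intensity, with the lists ordered by median interaction. Wound keratinocyte, neutrophil and fast muscle lists lie further right in SM/J, contractile, mast cell and MHC lists further right in LG/J, and cell cycle medians coincide at 0.64.

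Tissue genes chosen as checks were not called. Krt14 of basal keratinocytes had an interaction of -0.08 (95% interval -0.44 to 0.27), Col1a1 of dermal collagen 0.53 (-0.31 to 1.37), Acan of cartilage 0.46 (-0.24 to 1.16), Adipoq of fat 0.33 (-0.36 to 1.03) and Acta1 of striated muscle -0.47 (-1.13 to 0.19). These intervals leave room for differences of up to 1.37 on the log2 scale. Larger values also missed the threshold. Krt1 of differentiating keratinocytes went from 9.99, 10.32 and 10.46 to 13.56, 13.55 and 13.17 in LG/J and from 11.61, 12.01 and 12.27 to 13.55, 13.94 and 14.11 in SM/J, with an interaction of 1.27 ± 0.28 (adjusted p = 0.0755). Mmp3, stromelysin, changed by 0.35 in LG/J, which was not called, and by 1.48 in SM/J and an interaction of -1.13 ± 0.26 (adjusted p = 0.0867). Prf1, the perforin of cytotoxic lymphocytes, had -0.81 and 1.07 and an interaction of -1.88 ± 0.48 (adjusted p = 0.113), but its other probe, above the limit on 6 arrays, gave -0.08.

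Without both arrays that stood apart the lists held more calls. Of 44 collagen and matrix genes, 8 were called larger in LG/J and 0 larger in SM/J. The 8 included Lox, which cross-links collagen (1.21 ± 0.18), and fibronectin, Fn1 (1.17 ± 0.26). The neutrophil list of 28 genes had 7 calls larger in SM/J and 2 larger in LG/J, the latter being S100a8 (1.32 ± 0.30) and Hp (1.17 ± 0.25). The patterning list of 69 genes had 5 larger in LG/J and 0 larger in SM/J. The largest were Fgfr3 (1.76 ± 0.36), also a member of the cartilage list, and the BMP antagonist Grem1 (1.70 ± 0.19). With all 12 arrays Fgfr3 was at 0.17, Grem1 at 0.47, Fn1 at 0.25 (adjusted p = 0.961) and Lox at 0.52 (adjusted p = 0.844), so these values rest on leaving those arrays out. S100a8 was at 1.01 (adjusted p = 0.338) and Hp at 1.05 (adjusted p = 0.573) with all 12. The fast muscle list of 44 genes had 11 calls larger in SM/J and 1 larger in LG/J. Slow, embryonic and regenerating muscle, with 22 genes, had 7 larger in SM/J and 0 larger in LG/J. Cartilage, with 27 genes, had 5 larger in LG/J and 1 larger in SM/J. Adipocyte and lipid metabolism, with 33 genes, had 5 larger in LG/J and 0 larger in SM/J. Uninjured groups then have 2 arrays each, and 5.04% of all features are called.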

How the data were processed

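The deposited per-array values are average bead intensities on a linear scale. Per the labels, total RNA was labelled with biotin and read with streptavidin-Cy3. BeadStudio is the tool named in the submitters' processing notes. The normalization and filter of the authors' series table are not given in the sources used here, and it served as an alternative. The 12 arrays of 45281 probes were background-corrected together (normexp, offset 16), log2-transformed and quantile-normalized. The dimmest 25% of probes were removed, and the brightest probe per gene was kept, giving 24690 features. Probe names came from the platform's annotation table (23604 probes with 1 name, 12 with several, 21665 with none). The fit was limma 3.58.1 in R 4.3.3, with 1 mean per group over 12 arrays (8 residual degrees of freedom) and Benjamini-Hochberg adjustment, and was tested on simulated data. An exact test of 3 against 3 arrays cannot go below 0.1. The background limit is the 95% quantile of a normal curve around each array's signal mode, and the number of arrays limits precision. The arrays hold no identical replicates. The members of the comparison, the lists and the rule for named genes were chosen with earlier results of these data known. Named were the 15 largest called interactions each way, up to 3 called members of each list (or that with the lowest p), the 4 largest in each class of changes, the largest unnamed probe each way and 6 check genes. Other genes, such as Arg2, Tmprss11a, Lilr4b, Klk1b5, Sntb2, Tmem164, Ccnt2 and the family relatives, were added after their values were seen. Promoters are RefSeq's.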

Additional observations from a re-analysis of the deposited data

Results flagged for a closer look

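These results are listed because the day-7 change differed between the strains by the test of the interaction itself. The count was 105 features. On the log2 scale, LG/J change minus SM/J change, the values below 0 with no called fall in LG/J were ILMN_1252295 -3.66, Gsdmc2 -3.49, Cstdc4 -3.33, Cxcl2 -3.08, Prl2c4 -3.0, Prl2c3 -2.79, Saa3 -2.60, Chil3 -2.41, Scgb2b27 -2.37, Acod1 -2.29, Klra16 -2.27, Klk1 -2.24, Klra4 -2.10, Klk1b26 -2.08, Cd14 -2.08, Chil4 -2.02, S100a7a -1.52 and Arg1 -1.26. The values of genes that fell in LG/J were Pou5f2 -1.63, Sash1 -1.58, C030013C21Rik -1.53, Adamtsl1 -1.43, Olfr943 -1.32, Mgat5 -1.30, Ssb -1.30 and Trpm7 -1.30. The values above 0 were Mcpt8 2.30, Slc13a3 2.08, ILMN_2684370 1.42, Grm4 1.41, Prss46 1.22, Hbb-bs 1.13, Nptx2 1.03 and Palld 1.02. Dixon's test of single outlying samples was not run on groups of 3 arrays.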

How the results depend on the processing

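Over 24 alternatives 0 of the named interactions changed sign. With no filter, the dimmest 50% removed, every probe a feature or trend and robust fitting, the same probe and values were read. The sign could not change there. Each gene was read by the same probe throughout, and some other probes had the opposite sign, such as 0.19 for Mgat5. The 105 interaction calls became 125 with an offset of 50 and also with no background correction, 76 with median scaling, 104 with cyclic loess, 93 with no filter, 95 without the dimmest 50% of probes, 117 with every probe a feature, 135 from the authors' table and 107 with trend and robust fitting. Array weights gave 836 interaction calls, 4344 in LG/J, 5692 in SM/J, 10007 between uninjured strains and 9142 at day 7. Leaving out both arrays that stood apart gave 1245, 3450 in LG/J, 5076 in SM/J, 8748 between uninjured strains and 9076 at day 7. With the replicate number as a block there were 10 interaction calls, 1243 in SM/J and 2336 between uninjured strains. The 10 same-number pairs had correlations of departures from -0.09 to 0.19. Pairs with different numbers were not set beside them, and the labels do not say what a number stands for. Whether a shared number marks paired arrays was therefore not tested. Leaving out 1 array at a time gave 14 to 352 interaction calls, 1413 to 2754 in LG/J, 1454 to 4456 in SM/J, 2521 to 8176 between uninjured strains and 3597 to 8327 at day 7. The low count of 14 was without SM/J uninjured replicate 5, and 19 was without replicate 4, 21 without LG/J day-7 replicate 1 or SM/J day-7 replicate 1. Fewer samples are in each such fit. More positive changes in LG/J made up 12.4% of calls, 29.1% with array weights and 49.2% without both arrays. The share of rises among day-7 calls was 52.3% in LG/J and 55.1% in SM/J, and with median scaling 30.1% and 27.7%. The cause of these moves was not tested. Among the genes called in 24 of 24 alternatives were Gsdmc2, Cstdc4, Prl2c3, Prl2c4, Klk1b26, Scgb2b27 and ILMN_1252295, while Arg1 and Chil4 were called in 9, Cxcl2 in 12 and Cd14 in 13. The 34 called features with a group below the background limit on all arrays have only bounds for it.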
